A study of Homo sapiens with 12 samples.

Results

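The messenger RNA (mRNA) export factors described here are 10 genes of the NXF1 pathway and of the TREX and TREX-2 complexes: NXF1, NXT1, ALYREF, DDX39A, DDX39B, THOC1, THOC2, THOC5, THOC6 and MCM3AP. They were taken by gene symbol, not by a rule on measured values, but were chosen with earlier results of these data known. They make up 10 of the 17099 genes in the OCI-AML2 count table and 10 of the 16820 genes in the MOLM-13 count table. The study exposed OCI-AML2 and MOLM-13, human acute myeloid leukaemia cell lines, for 36 h to selinexor, an inhibitor of the nuclear export receptor XPO1, or to vehicle (DMSO). The groups were OCI-AML2 with selinexor at 200 nM, OCI-AML2 with vehicle, MOLM-13 with selinexor at 75 nM and MOLM-13 with vehicle, each with 3 libraries described as biologically independent. RNA of whole cells was poly(A)-selected and sequenced without strand information, and nuclear and cytoplasmic mRNA were not separated. Each line stands for 1 patient's leukaemia, and the dose differed between the lines, so line and dose cannot be told apart in any contrast between them.

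Most mRNA leaves the nucleus without XPO1. The heterodimer of NXF1 and NXT1 binds processed mRNA and carries it through the nuclear pore by contacts with phenylalanine-glycine nucleoporins. The TREX complex loads that receptor. Its THO core has THOC1, THOC2, THOC5 and THOC6 among its subunits. THO recruits the DEAD-box RNA helicase DDX39B (also called UAP56) and the adaptor ALYREF, which hands the mRNA to NXF1. DDX39A (URH49) is the paralogue of DDX39B. MCM3AP encodes GANP, the scaffold of TREX-2, which links mRNA export to the pore basket.

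Library totals ran between 8650518 and 9774423 counts in OCI-AML2 selinexor libraries, between 9506571 and 11769061 in OCI-AML2 vehicle libraries, between 8114892 and 9711704 in MOLM-13 selinexor libraries and between 8160133 and 9444344 in MOLM-13 vehicle libraries. The 10 factors had between 160 and 3196 counts in every library, beside the 3 counts that a count of 0 would allow. All 8 myeloid markers (CD33, SPI1, CEBPA, MPO, LYZ, FLT3, CSF1R and CSF3R) averaged at least 1 CPM (TMM-scaled counts in each 1000000 of the library) in each group. Their summed level ranged from 11161 to 11439 CPM in OCI-AML2 selinexor libraries, against 2761 to 2955 in OCI-AML2 vehicle libraries, and from 2976 to 3004 in MOLM-13 selinexor libraries, against 1284 to 1316 in MOLM-13 vehicle libraries. The 4 epithelial and stromal markers summed to 23.6 to 28.4 CPM in MOLM-13 selinexor libraries, against 8.21 to 8.75 in MOLM-13 vehicle libraries, and to under 1 CPM in OCI-AML2. The part of these markers in the changes of the export factors was not tested. MS4A1, HBB, HBA1 and EPCAM were at 0 counts in every library. Still, 1 of 4 B cell and 1 of 4 erythroid markers averaged at least 1 CPM in each group. B cell sums ran from 2.42 to 8.73 CPM and erythroid sums from 10.0 to 30.5 CPM over all libraries. HOXA9, MEIS1 and HOXA10, markers of KMT2A-rearranged leukaemia, summed to 124 to 135 CPM with selinexor and 109 to 114 with vehicle in OCI-AML2. In MOLM-13 they summed to 101 to 109 CPM with selinexor and 147 to 160 with vehicle. XPO1, the drug's target, was higher in selinexor than in vehicle cells by 0.63 ± 0.040 in OCI-AML2 and 0.66 ± 0.035 in MOLM-13 on the log2 scale (± SE, n = 3 libraries a group).

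The export factors did not move as a block. In OCI-AML2, 2 of the 10 were higher under selinexor (NXF1 and DDX39B), where 31.3% of all 12086 tested genes were called higher, and 5 were lower (NXT1, ALYREF, DDX39A, THOC5 and THOC6), where 31.8% were called lower. In MOLM-13, 3 were higher (NXF1, DDX39B and THOC2), where 31.8% of 11807 tested genes were called higher, and the same 5 were lower, where 31.8% were called lower. The share called higher in MOLM-13 is close to the background and is no result about these genes, and no test of the list was made for the other shares. Libraries of the treatments did not overlap for 9 of the 10 in either line, which in OCI-AML2 also held for 66.3% and in MOLM-13 for 65.5% of all tested genes. The median log2 fold change of the 10 was −0.21 in OCI-AML2 and −0.15 in MOLM-13, beside medians of −0.00 and 0.01 over all tested genes. Calls throughout use edgeR, with its quasi-likelihood F test and p-values adjusted by Benjamini and Hochberg's method over every tested gene, and need an adjusted p below 0.05. In whole-population RNA, fewer cells of a type and less RNA per cell cannot be told apart.

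**Figure D1:**
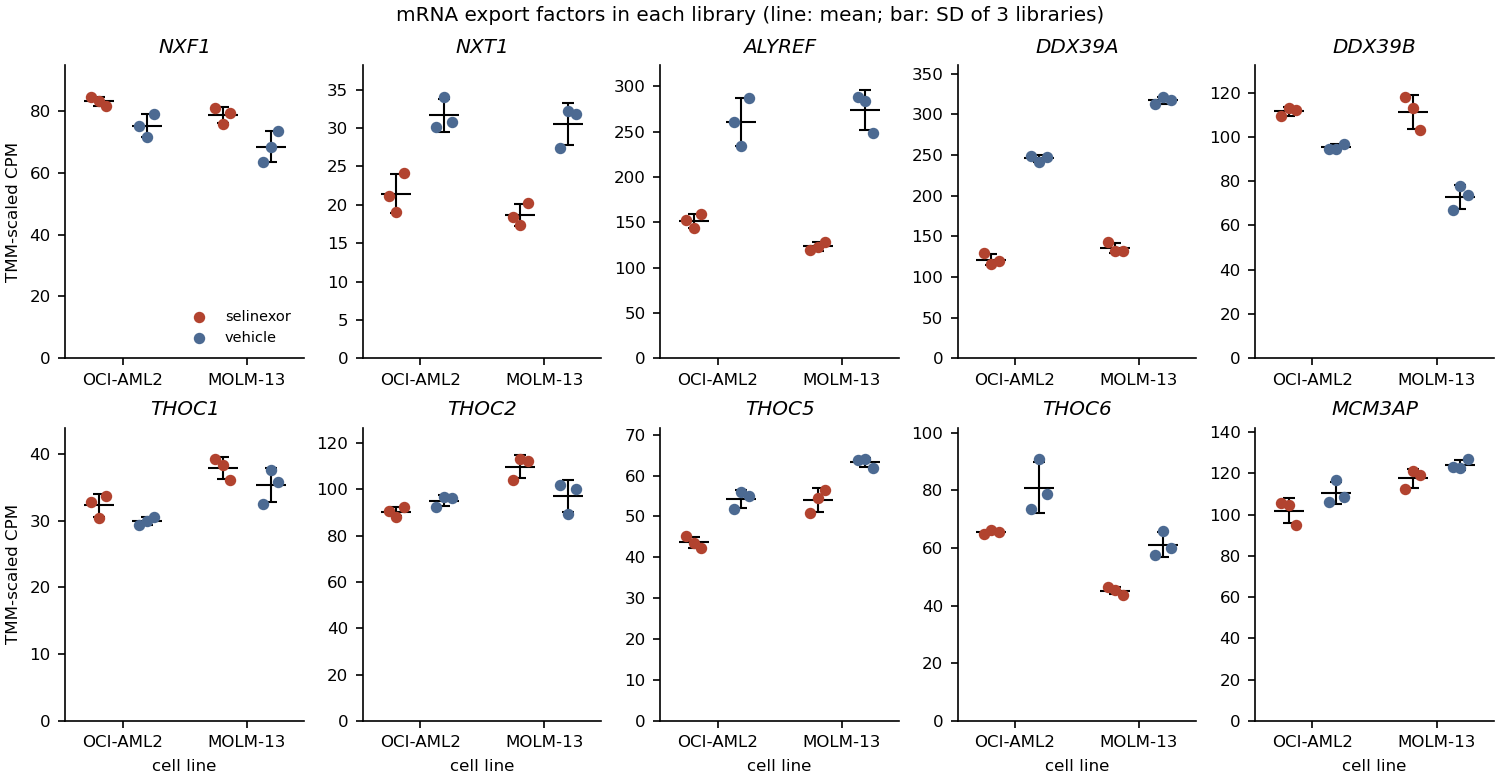
Level of each of the 10 export factors in every library, in TMM-scaled CPM on axes that start at 0, with selinexor (red) and vehicle (blue) side by side for each line, the mean as a line and the SD of 3 libraries as a bar. Libraries of the 2 treatments do not overlap for any gene except THOC1, and the widest gaps are those of DDX39A and ALYREF.

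The receptor subunits NXF1 and NXT1 changed in opposite directions. NXF1, the large subunit that binds mRNA (chr11:62792123-62806302, minus strand, GRCh38), had 84.6, 83.0 and 81.6 CPM in OCI-AML2 selinexor libraries and 75.1, 71.4 and 79.1 CPM in OCI-AML2 vehicle libraries. In MOLM-13 it had 81.0, 75.7 and 79.3 CPM with selinexor and 63.4, 68.3 and 73.5 CPM with vehicle. Every selinexor library was above every vehicle library of its line, by a small margin. The rise was 0.14 ± 0.060 log2 units in OCI-AML2 (adjusted p = 0.0346) and 0.20 ± 0.063 in MOLM-13 (adjusted p = 0.00418). The OCI-AML2 call was lost in 7 of 12 alternative fits (adjusted p between 0.0647 and 0.208), among them those without vehicle library 1, vehicle library 2, selinexor library 1 or selinexor library 2, and the MOLM-13 call was lost without vehicle library 1 (0.14, adjusted p = 0.0597).

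NXT1, the small partner that stabilises NXF1 (chr20:23350736-23354777, plus strand), was the least counted of the 10 in every group except OCI-AML2 vehicle. There THOC1 had fewer counts in each library. NXT1 had 21.1, 19.1 and 24.2 CPM in OCI-AML2 selinexor libraries, against 30.1, 34.1 and 30.8 CPM in OCI-AML2 vehicle libraries. In MOLM-13 the levels were 18.5, 17.3 and 20.2 CPM with selinexor and 27.3, 32.3 and 31.8 CPM with vehicle. The treatments did not overlap in either line. The fall was −0.56 ± 0.097 log2 units in OCI-AML2 (adjusted p = 2.83e-06) and −0.72 ± 0.10 in MOLM-13 (adjusted p = 1.29e-09). It was called in each of the 12 alternative fits of each line.

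Within a library the ratio of NXF1 to NXT1 counts does not depend on scaling. It was 4.01, 4.35 and 3.37 in OCI-AML2 selinexor libraries and 2.50, 2.09 and 2.56 in OCI-AML2 vehicle libraries, and 4.39, 4.37 and 3.92 in MOLM-13 selinexor libraries and 2.32, 2.12 and 2.31 in MOLM-13 vehicle libraries. The mean shift over both lines was 0.81 log2 units. A two-sided exact permutation test with treatment labels exchanged within each line gave p = 0.005, the smallest that its 400 arrangements allow, and 0.005 after adjustment over the 3 ratios tested. Since NXF1 was above and NXT1 below vehicle in every selinexor library, full separation of the ratio was fixed in advance. The p-value therefore adds no support beyond the results of each gene. With 3 libraries against 3, either line alone could not go below p = 0.1 by the exact test.

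The paralogous helicases also moved apart, and by more. DDX39A (chr19:14408819-14419383, minus strand) had 129, 115 and 120 CPM in OCI-AML2 selinexor libraries and 249, 241 and 247 CPM in OCI-AML2 vehicle libraries. The MOLM-13 libraries had 143, 132 and 132 CPM with selinexor and 312, 322 and 317 CPM with vehicle. Every selinexor library lay far below the lowest vehicle library of its line, and the log2 fold changes were −1.02 ± 0.047 in OCI-AML2 (adjusted p = 8.38e-23) and −1.23 ± 0.042 in MOLM-13 (adjusted p = 3.22e-48). These are the largest falls among the 10 factors in each line.

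DDX39B (chr6:31530219-31542448, minus strand) rose. It had 109, 113 and 112 CPM in OCI-AML2 selinexor libraries, against 94.5, 94.5 and 97.0 CPM in OCI-AML2 vehicle libraries. The corresponding MOLM-13 levels were 118, 113 and 103 CPM with selinexor, against 67.2, 78.0 and 73.9 CPM with vehicle. The treatments did not overlap, and the log2 fold changes were 0.23 ± 0.053 in OCI-AML2 (adjusted p = 0.000254) and 0.61 ± 0.058 in MOLM-13 (adjusted p = 1.67e-16). The selinexor levels differed between the lines by less than their SD, at 112 ± 1.9 CPM in OCI-AML2 and 111 ± 7.7 CPM in MOLM-13 (SD, n = 3 each), while the vehicle levels were 95.3 ± 1.4 CPM in OCI-AML2 and 73.0 ± 5.5 CPM in MOLM-13. Scaling was done within each line, so these levels are not on a common scale, and their likeness was not tested.

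DDX39A counts exceeded DDX39B counts by a geometric mean of 1.09-fold in OCI-AML2 selinexor libraries and 2.58-fold in OCI-AML2 vehicle libraries, and by 1.22-fold in MOLM-13 selinexor libraries and 4.35-fold in MOLM-13 vehicle libraries. The log2 ratio shifted with selinexor by a mean of −1.54 over both lines (two-sided exact permutation test within lines, p = 0.005, the smallest possible, 0.005 after adjustment over 3 ratios). This p-value was likewise fixed by the separation of each helicase in opposite directions, and adds no support of its own. Per kilobase of transcript, DDX39B supplied 39.6% ± 1.8 of the summed helicase level in OCI-AML2 selinexor libraries and 21.6% ± 0.32 in OCI-AML2 vehicle libraries, and 36.9% ± 1.1 in MOLM-13 selinexor libraries and 14.1% ± 0.73 in MOLM-13 vehicle libraries (SD, n = 3 each). The sum of both helicases was 137 ± 3.9 CPM per kilobase with selinexor and 213 ± 3.0 with vehicle in OCI-AML2, and 146 ± 7.6 with selinexor and 251 ± 5.8 with vehicle in MOLM-13. The rise of DDX39B was therefore smaller than the fall of DDX39A on this scale.

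**Figure D2:**
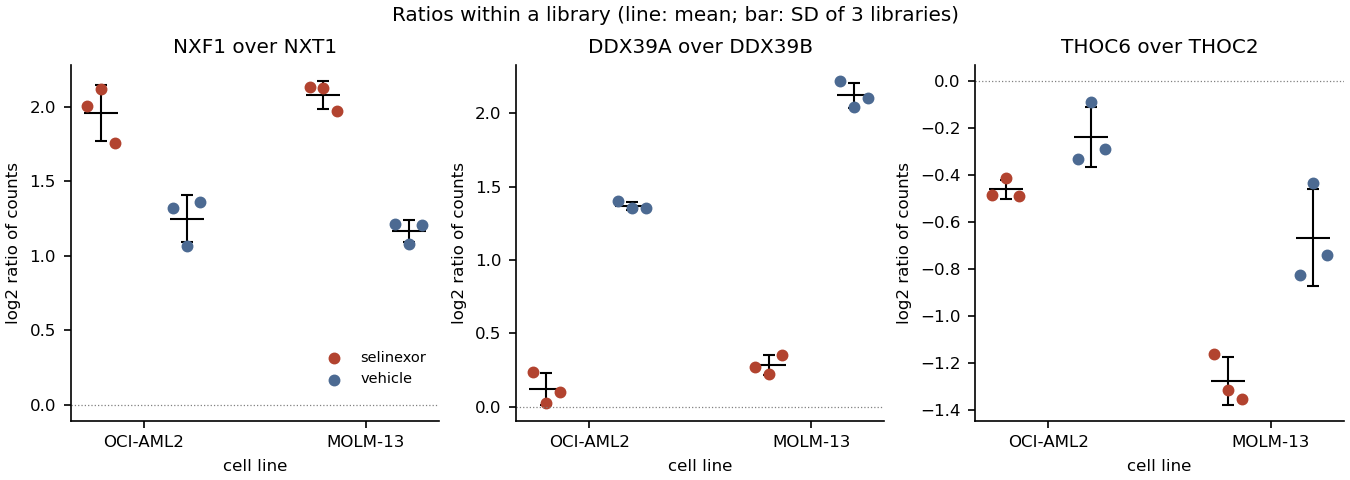
The log2 ratio of counts within each library for NXF1 over NXT1, DDX39A over DDX39B and THOC6 over THOC2, selinexor (red) left of vehicle (blue) for each line, with the mean as a line and the SD of 3 libraries as a bar. In all 3 ratios the selinexor libraries of a line lie apart from its vehicle libraries, and DDX39A over DDX39B approaches 0, equal counts, with selinexor.

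Because the helicases are paralogues, the reads could in principle be confused. The coding sequences matched at 80.0% of 1281 aligned bases and the 427 and 428 residue proteins they encode at 90.2% of 427 aligned residues, computed from GENCODE 29 transcripts. The longest exact run that the 2 transcripts share is 26 bases, in coding sequence of exon 4 of each. It is shown here in capitals with 12 bases on either side because it is their longest stretch without a mismatch (chr19:14411531-14411556 for DDX39A and chr6:31538788-31538813 for DDX39B, minus strand, GRCh38).
DDX39A: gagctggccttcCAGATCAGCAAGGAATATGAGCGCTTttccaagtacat
DDX39B: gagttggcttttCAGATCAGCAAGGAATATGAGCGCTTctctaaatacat
None of the 1442 stretches of 30 bases in the DDX39A transcript occurs in the DDX39B transcript, and none of the 2104 in DDX39B occurs in DDX39A. Only exact matches between 1 transcript of each gene were sought, so reads that match with mismatches were not examined. A processed pseudogene of DDX39A is annotated as well, and how the authors' counting treated reads that match more than 1 place is not given in the sources used here. DDX39B shares 2079 exonic bases on the same strand with the read-through gene ATP6V1G2-DDX39B, so reads of the read-through cannot be told apart from its own.

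The promoters of the helicases differ in sequence, and are shown because these paralogues changed in opposite directions. The windows hold 250 bases before and 50 after a RefSeq start (GRCh38.p14), 5′ to 3′ on the gene's strand. The motif CCAAT, or its reverse complement ATTGG, is in capitals. The first is chr19:14419334-14419633 and the second chr6:31541954-31542253, both minus strand.
DDX39A: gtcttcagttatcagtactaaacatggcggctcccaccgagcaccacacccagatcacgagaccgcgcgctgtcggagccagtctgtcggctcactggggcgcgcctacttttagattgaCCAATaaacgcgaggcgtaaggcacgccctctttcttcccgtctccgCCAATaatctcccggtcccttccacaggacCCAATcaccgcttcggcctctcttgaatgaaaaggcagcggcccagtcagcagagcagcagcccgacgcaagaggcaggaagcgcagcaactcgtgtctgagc
DDX39B: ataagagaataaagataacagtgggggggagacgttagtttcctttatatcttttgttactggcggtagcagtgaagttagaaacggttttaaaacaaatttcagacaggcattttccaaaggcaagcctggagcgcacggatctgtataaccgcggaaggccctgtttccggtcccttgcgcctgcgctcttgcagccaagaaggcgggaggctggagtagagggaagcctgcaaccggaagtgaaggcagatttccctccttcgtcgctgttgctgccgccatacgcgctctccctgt
CCAAT, read on both strands, occurred 3 times in the DDX39A window, at −130, −83 and −53 from the start, and not in the DDX39B window. The RefSeq start used is the GENCODE gene start for DDX39A but lies 445 bases from it for DDX39B. DDX39A has a second RefSeq start, from which the same matches lie at −172, −125 and −95. ALYREF and THOC5 also have a second start, with unchanged numbers of matches. Of 35116 RefSeq promoter windows, 34.6% held at least 1 match and 3.26% held 3 or more. The other motifs searched, also on both strands, were TATAAA, present in 11.5% of windows, and CACGTG, present in 7.26%. DDX39B, NXF1 and ALYREF each held 1 TATAAA match, and none of the 10 factors held CACGTG. MCM3AP held 2 CCAAT matches, ALYREF, NXT1 and THOC6 held 1 each, and NXF1, THOC1, THOC2 and THOC5 held none. The RefSeq start lies 862 bases from the GENCODE gene start for NXF1, 686 for MCM3AP and 1459 for the first THOC5 start. The windows are therefore not at like places in each gene. A match is a description of the letters and not a binding site, and a window without one says nothing about the factor.

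ALYREF, the RNA-binding adaptor that joins TREX to NXF1 (chr17:81887844-81891586, minus strand), fell in both lines. It had 152, 144 and 159 CPM in OCI-AML2 selinexor libraries and 261, 234 and 287 CPM in OCI-AML2 vehicle libraries. MOLM-13 cells had 119, 123 and 128 CPM with selinexor and 289, 284 and 248 CPM with vehicle. The treatments were well separated, with log2 fold changes of −0.78 ± 0.066 in OCI-AML2 (adjusted p = 1.17e-07) and −1.15 ± 0.046 in MOLM-13 (adjusted p = 4.03e-38). ALYREF shares 62 exonic bases with ANAPC11 on the opposite strand, whose reads cannot be told apart there. ANAPC11, a subunit of the anaphase-promoting complex, itself changed by −0.41 ± 0.048 in OCI-AML2 (adjusted p = 5.68e-10) and −0.78 ± 0.051 in MOLM-13 (adjusted p = 9.49e-26).

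The THO subunits did not change together. THOC5, which binds the THO core and contacts NXF1 (chr22:29505879-29555216, minus strand), had 45.2, 43.5 and 42.4 CPM in OCI-AML2 selinexor libraries and 51.8, 56.1 and 55.0 CPM in OCI-AML2 vehicle libraries. In MOLM-13 the levels were 50.7, 54.6 and 56.5 CPM with selinexor and 63.8, 64.0 and 61.9 CPM with vehicle. The falls were modest and free of overlap, at −0.32 ± 0.070 in OCI-AML2 (adjusted p = 0.000136) and −0.23 ± 0.068 in MOLM-13 (adjusted p = 0.00236). THOC5 shares 158 exonic bases on the same strand with NIPSNAP1, which changed the other way, by 0.83 ± 0.075 in OCI-AML2 (adjusted p = 5.87e-13) and 1.14 ± 0.13 in MOLM-13 (adjusted p = 1.20e-13).

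THOC6, a WD-repeat subunit at the edge of the complex (chr16:3024027-3027755, plus strand), had 64.9, 66.2 and 65.7 CPM in OCI-AML2 selinexor libraries and 73.6, 90.8 and 78.6 CPM in OCI-AML2 vehicle libraries. In MOLM-13 it had 46.5, 45.4 and 43.9 CPM with selinexor and 57.5, 66.0 and 59.9 CPM with vehicle. Selinexor libraries lay close together and below all vehicle libraries, with falls of −0.31 ± 0.067 in OCI-AML2 (adjusted p = 0.000116) and −0.43 ± 0.072 in MOLM-13 (adjusted p = 1.13e-07). Of its annotated exonic bases, 260 overlap HCFC1R1 on the opposite strand, which had log2 fold changes of −0.18 ± 0.083 in OCI-AML2 (adjusted p = 0.0587, not called) and −0.53 ± 0.087 in MOLM-13 (adjusted p = 8.18e-08).

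THOC2, the large scaffold of THO (chrX:123600561-123733056, minus strand), had 90.7, 88.1 and 92.1 CPM in OCI-AML2 selinexor libraries and 92.4, 96.6 and 96.0 CPM in OCI-AML2 vehicle libraries. The MOLM-13 libraries had 104, 113 and 112 CPM with selinexor and 102, 89.1 and 100 CPM with vehicle. Selinexor libraries lay just below vehicle libraries in OCI-AML2 and just above them in MOLM-13. The OCI-AML2 difference of −0.07 ± 0.056 log2 units was not called (adjusted p = 0.246), and the MOLM-13 rise was 0.18 ± 0.055 (adjusted p = 0.00338). Under library size alone the OCI-AML2 difference was −0.13 and was called (adjusted p = 0.0388). Without MOLM-13 vehicle library 2, which has the lowest THOC2 level of that line, the rise was 0.12 and no longer called (adjusted p = 0.0895). The annotated pseudogene FERP1 lies opposite 610 of its exonic bases and has no row of its own in the tables.

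THOC1, a core THO subunit first described as a partner of the retinoblastoma protein (chr18:214520-268050, minus strand), was the only one of the 10 whose treatments overlapped, and did so in both lines. It had 32.8, 30.4 and 33.7 CPM with selinexor and 29.4, 29.9 and 30.6 CPM with vehicle in OCI-AML2, and 39.2, 38.4 and 36.1 CPM with selinexor and 32.6, 37.6 and 35.8 CPM with vehicle in MOLM-13. The differences were 0.11 ± 0.085 log2 units in OCI-AML2 (adjusted p = 0.277) and 0.10 ± 0.084 in MOLM-13 (adjusted p = 0.302), not called in either line. USP14 overlaps 110 exonic bases of THOC1 on the opposite strand and changed by −0.56 ± 0.058 in OCI-AML2 (adjusted p = 1.83e-11) and −0.21 ± 0.055 in MOLM-13 (adjusted p = 0.000529).

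Within a library, THOC6 over THOC2 counts had a geometric mean of 0.727 with selinexor and 0.849 with vehicle in OCI-AML2, and 0.413 with selinexor and 0.630 with vehicle in MOLM-13. The mean shift over both lines was −0.42 log2 units (two-sided exact permutation test within lines, p = 0.005, the smallest possible, 0.005 after adjustment over 3 ratios). In MOLM-13 the separation of this ratio followed from that of each gene in opposite directions. In OCI-AML2 both genes lay below vehicle, so there it did not. The p-value over both lines therefore rests in part on a separation fixed in advance. OCI-AML2 alone could not go below p = 0.1 by the exact test. The peripheral subunit was lower relative to the scaffold in every selinexor library of a line than in any of its vehicle libraries, although THOC2 itself was not called in OCI-AML2.

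MCM3AP, the TREX-2 scaffold (chr21:46235126-46286297, minus strand), had 105.7, 104.9 and 94.9 CPM in OCI-AML2 selinexor libraries and 106.2, 116.7 and 108.7 CPM in OCI-AML2 vehicle libraries. The corresponding MOLM-13 levels were 112, 121 and 119 CPM with selinexor and 123, 123 and 127 CPM with vehicle. Selinexor libraries were below vehicle libraries in both lines, with log2 fold changes of −0.12 ± 0.056 in OCI-AML2 (adjusted p = 0.0554) and −0.08 ± 0.050 in MOLM-13 (adjusted p = 0.165), and neither difference was called. The OCI-AML2 difference passed the threshold in 4 of 12 alternative fits, among them those without vehicle library 1 (adjusted p = 0.0271) and without selinexor library 1. The MOLM-13 difference of MCM3AP passed it under library size alone (−0.11, adjusted p = 0.0489). The antisense gene MCM3AP-AS1 overlaps 1427 of its exonic bases and, since strand was not recorded, its reads cannot be separated from those of MCM3AP there. MCM3AP-AS1 had log2 fold changes of −0.13 ± 0.075 in OCI-AML2 (adjusted p = 0.127) and −0.07 ± 0.073 in MOLM-13 (adjusted p = 0.410), not called in either line.

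**Figure D3:**
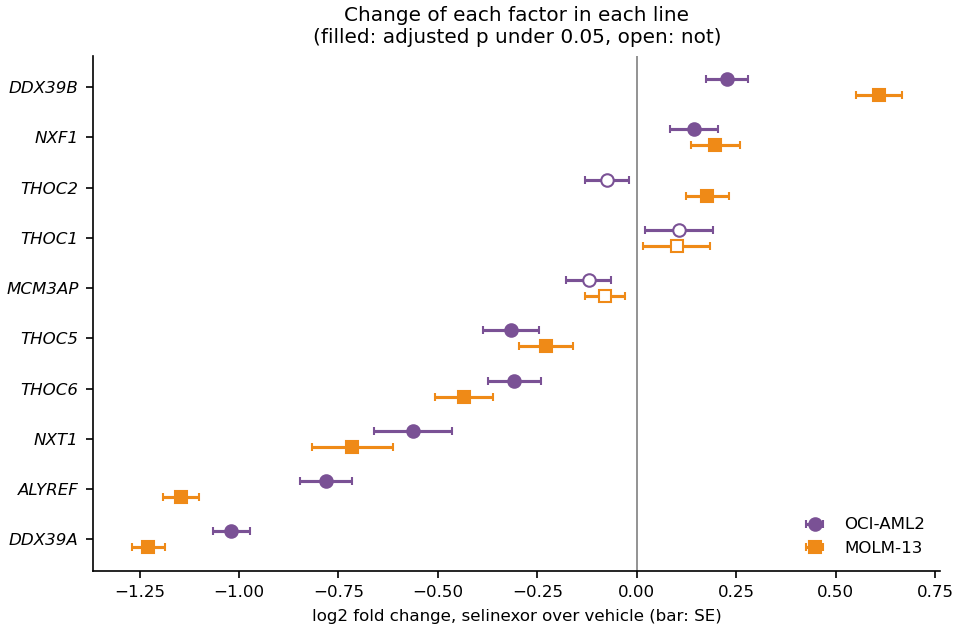
Log2 fold change of each export factor, selinexor over vehicle, in OCI-AML2 (circles) and MOLM-13 (squares), with the SE as a bar and filled symbols where the adjusted p is under 0.05. Values run from −1.23 for DDX39A in MOLM-13 to 0.61 for DDX39B in MOLM-13, and THOC2 is the only factor on opposite sides of 0 in the 2 lines.

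Fitting all 12 libraries with an interaction of line and treatment tested whether the responses differed. The change was higher in MOLM-13 than in OCI-AML2 for 2 factors, where 11.1% of all 12530 tested genes were called higher, and lower for 2, where 19.0% were called lower. The share called lower is close to the background. DDX39B rose more in MOLM-13 by 0.33 ± 0.080 log2 units (adjusted p = 0.000675), and this held in all 18 alternative fits. THOC2 differed by 0.20 ± 0.079 (adjusted p = 0.0423), and ALYREF and DDX39A fell further in MOLM-13, with differences of −0.41 ± 0.11 (adjusted p = 0.00891) and −0.26 ± 0.064 (adjusted p = 0.000891). The median difference of all tested genes was −0.04.

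The calls of THOC2, ALYREF and DDX39A depended on single libraries. ALYREF lost its call without OCI-AML2 vehicle library 1 (−0.32, adjusted p = 0.0759) or MOLM-13 vehicle library 2 (−0.29, adjusted p = 0.0639), DDX39A without OCI-AML2 vehicle library 2 (−0.15, adjusted p = 0.0645) or MOLM-13 vehicle library 2 (−0.15, adjusted p = 0.0860), and THOC2 without OCI-AML2 selinexor library 1 or 2 or MOLM-13 selinexor library 2 or 3 (adjusted p between 0.0625 and 0.105) or with no filter on low counts (adjusted p = 0.0536). Without any 1 of these vehicle libraries the median difference of all genes was 0.05 rather than −0.04. It was also 0.05 without OCI-AML2 vehicle library 3, where ALYREF and DDX39A kept their calls. For the other 6 factors the difference was not called, with values between −0.20 ± 0.14 for NXT1 and 0.04 ± 0.099 for THOC5, which do not show that the lines responded alike.

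Levels were compared between genes per kilobase, with the median length of the principal coding transcripts. ALYREF was the most abundant of the 10 in every group, at 139 ± 6.9 CPM per kilobase in OCI-AML2 selinexor cells, 239 ± 24 in OCI-AML2 vehicle cells, 114 ± 4.3 in MOLM-13 selinexor cells and 251 ± 20 in MOLM-13 vehicle cells (SD, n = 3 each). DDX39A had rank 2 in each group, at 82.6 ± 4.8 CPM per kilobase in OCI-AML2 selinexor cells, 167 ± 2.8 in OCI-AML2 vehicle cells, 92.1 ± 4.3 in MOLM-13 selinexor cells and 216 ± 3.2 in MOLM-13 vehicle cells. DDX39B had rank 3 and THOC6 rank 4 in the selinexor groups, while in the vehicle groups THOC6 had rank 3 and DDX39B rank 4. In MOLM-13 selinexor libraries DDX39B and THOC6 did not overlap, at 53.9 ± 3.7 and 31.9 ± 0.93 CPM per kilobase. In OCI-AML2 the lowest was THOC1, at 15.5 ± 0.80 CPM per kilobase with selinexor and 14.4 ± 0.29 with vehicle. NXT1 was the lowest in MOLM-13 selinexor libraries at 16.6 ± 1.3 CPM per kilobase, where it overlapped THOC1, and had rank 5 in MOLM-13 vehicle libraries at 27.1 ± 2.4. Neighbours in the order whose libraries overlapped were ranks 6 to 10 in OCI-AML2 selinexor cells, NXF1 with NXT1 and THOC2 with MCM3AP in OCI-AML2 vehicle cells, THOC6 with NXF1, THOC2 with THOC5 and MCM3AP with THOC1 in MOLM-13 selinexor cells, and NXT1 with NXF1 and THOC2 with THOC1 in MOLM-13 vehicle cells. With the length of all annotated exons together, a choice added after the data were seen, ALYREF again had rank 1 in the 4 groups and DDX39A rank 2 in 3 of them, and NXT1 had rank 4 in each. On that length THOC6 was above DDX39B in all 4 groups, so the order of this pair in selinexor cells depends on the length used.

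Other genes of the export route were taken from lists, and their counts are given beside the same backgrounds. Of all tested genes, 31.3% were called higher and 31.8% lower in OCI-AML2, and 31.8% in either direction in MOLM-13. Of the NXF1 family, NXT2 and NXF3 passed the filter on low counts and both were higher with selinexor in both lines. NXF3, a family member known to leave the nucleus through XPO1, had 174, 175 and 190 CPM in OCI-AML2 selinexor libraries and 59.8, 53.4 and 54.2 CPM in OCI-AML2 vehicle libraries, and 114, 114 and 110 CPM in MOLM-13 selinexor libraries and 37.9, 41.8 and 38.7 CPM in MOLM-13 vehicle libraries. Its rise of 1.69 ± 0.056 in OCI-AML2 and 1.51 ± 0.064 in MOLM-13 was larger than the rise of NXF1 or DDX39B in either line. NXT2, the paralogue of NXT1, rose by 0.39 ± 0.059 in MOLM-13 (adjusted p = 6.59e-09) and by 0.17 ± 0.075 in OCI-AML2 (adjusted p = 0.0446), a call lost under library size alone, with no filter, with DESeq2 and without vehicle library 2 or 3 or any 1 selinexor library (adjusted p between 0.0565 and 0.251 in these fits).

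Among 7 tested genes of the rest of TREX, 1 was higher and 4 lower in OCI-AML2, and 1 was higher and 3 lower in MOLM-13. The shares of all tested genes were 31.3% higher and 31.8% lower in OCI-AML2, and 31.8% in either direction in MOLM-13. CHTOP, an adaptor that binds NXF1, changed by −0.37 ± 0.054 in OCI-AML2 and −0.67 ± 0.042 in MOLM-13. ERH, a small nuclear protein found with TREX, changed by −0.44 ± 0.047 in OCI-AML2 and −0.78 ± 0.057 in MOLM-13. THOC3, a further THO subunit, changed by −0.41 ± 0.074 in OCI-AML2 and −0.47 ± 0.069 in MOLM-13. FYTTD1, which encodes the adaptor UIF, had −0.52 ± 0.060 in OCI-AML2 and 0.18 ± 0.072 in MOLM-13, and the MOLM-13 call was lost in 6 alternative fits, among them those without vehicle library 2 or 3 or selinexor library 3 (adjusted p between 0.126 and 0.165). The higher gene in OCI-AML2 was POLDIP3, at 0.26, named after its value was seen. Of 5 TREX-2 genes other than MCM3AP, PCID2 was lower in OCI-AML2, a call lost under upper quartile scaling, with DESeq2 and without vehicle library 1 or 3 or selinexor library 2. ENY2, SEM1 and CETN3 were lower in MOLM-13, and CETN3 lost its call without vehicle library 2 or selinexor library 2.

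The nuclear cap and the exon junction complex mark processed mRNA for export. Of 14 genes of the nuclear cap and the exon junction complex, 12 were lower and none higher in each line, with NCBP3 and ACIN1 not called in either, and with medians of −0.42 in OCI-AML2 and −0.33 in MOLM-13. MAGOHB, which encodes an exon junction core protein, changed by −0.78 ± 0.088 in OCI-AML2 and −1.15 ± 0.087 in MOLM-13, and RNPS1, a peripheral exon junction protein, by −0.58 ± 0.043 in OCI-AML2 and −0.54 ± 0.042 in MOLM-13. EIF4A3, the helicase of the complex, changed by −0.28 ± 0.051 in OCI-AML2 and −0.56 ± 0.045 in MOLM-13. Of 9 other adaptors of NXF1, 8 were lower in OCI-AML2 and 7 in MOLM-13, with medians of −0.42 in OCI-AML2 and −0.54 in MOLM-13 and none higher. These counts too stand beside 31.8% of all tested genes called lower in each line, and this list was not tested either. SRSF1, SRSF3 and SRSF7, serine/arginine-rich splicing factors that bind NXF1, changed by −0.85 ± 0.060, −0.61 ± 0.042 and −0.70 ± 0.047 in OCI-AML2 and by −0.96 ± 0.058, −0.73 ± 0.034 and −1.06 ± 0.043 in MOLM-13.

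At the pore, 9 of 13 tested docking and release genes were lower and none higher in OCI-AML2, and 8 were lower and 2 higher in MOLM-13. NUP62, a nucleoporin of the central channel, changed by −0.52 ± 0.053 in OCI-AML2 and −0.63 ± 0.051 in MOLM-13. NUP153 and NUP88 were also lower, by −0.38 and −0.58 in OCI-AML2 and by −0.42 and −0.40 in MOLM-13. Higher in MOLM-13 were TPR, the basket protein, at 0.36 ± 0.040, and RANBP2, at 0.18, named after its value was seen. Of 6 tested genes of nuclear poly(A) binding and retention, 1 was higher and 1 lower in each line: ZC3H3 and MTREX in OCI-AML2, and ZFC3H1 and EXOSC10 in MOLM-13. Under upper quartile scaling MTREX lost its call in OCI-AML2 (adjusted p = 0.0508) and ZFC3H1 gained one there (adjusted p = 0.0173), which gives 2 higher and 0 lower. Without OCI-AML2 vehicle library 1, 2 were higher in that line. Under library size alone 2 were lower in each line, and under upper quartile scaling 2 were higher in MOLM-13. For RNA export through XPO1, 8 of 11 genes were lower and XPO1 alone higher in OCI-AML2, and 7 were lower and 3 higher in MOLM-13. Each line's medians and counts are read beside 31.3% and 31.8% of genes called higher or lower in OCI-AML2 and 31.8% in either direction in MOLM-13, and no test was made of a list.

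**Figure D4:**
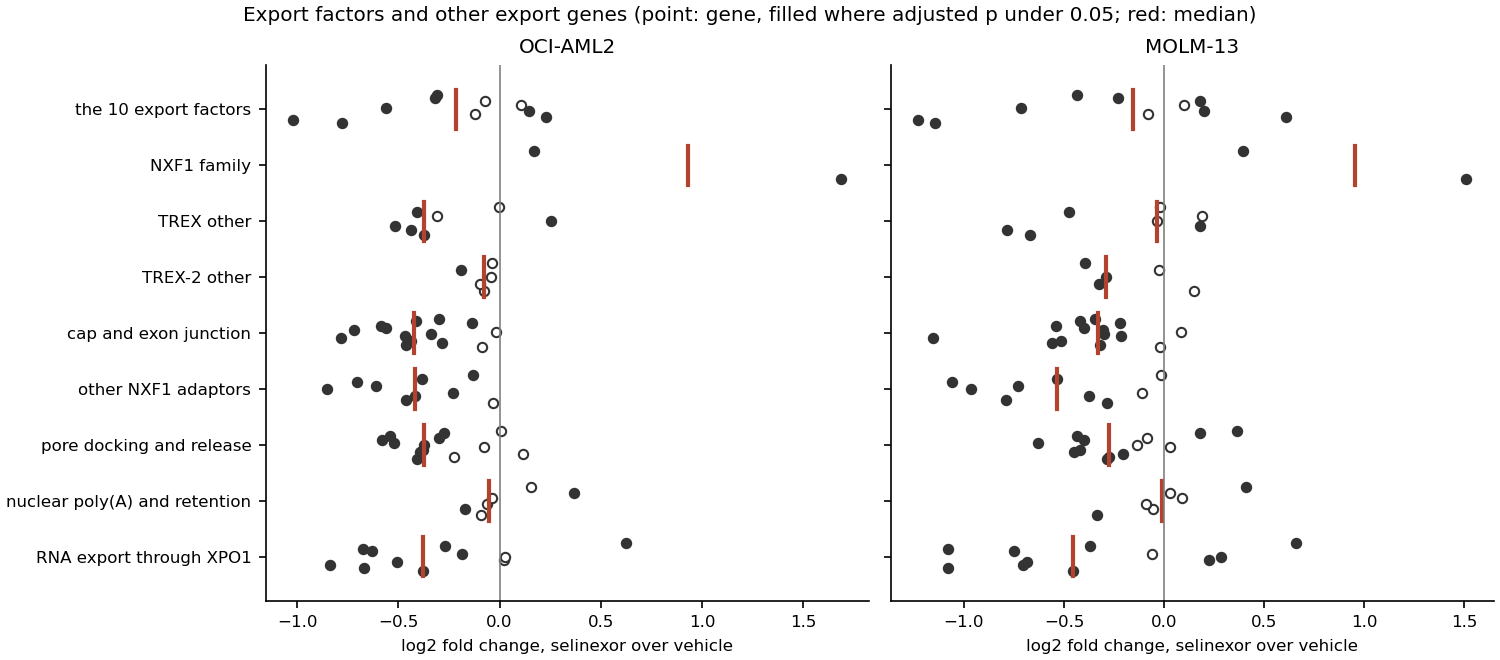
Log2 fold change, selinexor over vehicle, of the 10 export factors and of each other list of export genes in OCI-AML2 (left) and MOLM-13 (right). Each point is a tested gene, filled where its adjusted p is under 0.05, and red bars are medians; cap and exon junction genes have medians of −0.42 in OCI-AML2 and −0.33 in MOLM-13, and no point of that list is filled on the right of 0.

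The genes with the pattern most like NXF1 over the 12 libraries, among 9463 genes with a mean of at least 5 CPM in both lines, were SETDB1, MPHOSPH8, WDR73, ACAT1 and VLDLR. Likeness was the root mean square difference of log2 CPM, centred on each line's vehicle mean, and lay between 0.05 and 0.06 for these 5 beside a median of 0.29 for all genes compared. For ALYREF the nearest were RANBP1, KIF22, TIMELESS, MZT1 and SKA2, between 0.08 and 0.10 beside a median of 0.69. RANBP1, a cofactor of Ran in XPO1 export, changed by −0.67 ± 0.058 in OCI-AML2 and −1.08 ± 0.040 in MOLM-13.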

How the data were processed

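STAR, the build hg38, DESeq2 and R 3.6.1 are named in the submitters' processing notes. What counted the reads is not given in the sources used here. Raw counts per gene, 1 table per line, are the values the authors deposited, and all 12 columns were used. Columns are headed by treatment only, so libraries are numbered by column. Genes were filtered (filterByExpr, minimum count 10, minimum total 15), scaled by TMM and tested with edgeR 4.0.16 (robust quasi-likelihood F test, R 4.3.3), with Benjamini-Hochberg adjustment over all tested genes. The SE is the log2 fold change divided by the square root of F. CPM are TMM-scaled counts in each 1000000. Ratios were tested by exact permutation of libraries. The fits were tested on simulated data. Alternatives used limma 3.58.1, DESeq2 1.42.0, other scalings, no filter, and each library left out. GENCODE 29 gave positions and lengths, and RefSeq the promoters. The members and lists were chosen with earlier results of these data known. All 10 factors are named, with the 5 nearest patterns of NXF1 and of ALYREF. The rule for each other list was up to 4 genes of smallest p. SRRT, NUDT21, ANP32B and RAN also met that rule, were called lower in both lines, and are not described above. From the lists, NCBP3, ACIN1, POLDIP3 and RANBP2 were named outside it. Floors and library totals speak to counting error only. Differences between libraries may be partly technical.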

Additional observations from a re-analysis of the deposited data

Results flagged for a closer look

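The effect of selinexor differed between the lines, by the interaction of line and treatment in edgeR's quasi-likelihood test, for 4 of the 10 factors, 2 in each direction, where 11.1% of all tested genes were called higher and 19.0% lower. The calls of ALYREF, DDX39A and THOC2 were each lost without certain single libraries, and that of DDX39B was not. The MOLM-13 minus OCI-AML2 difference of log2 fold changes was −0.41 for ALYREF (−1.15 in MOLM-13 and −0.78 in OCI-AML2), −0.26 for DDX39A (−1.23 in MOLM-13 and −1.02 in OCI-AML2), 0.33 for DDX39B (0.61 in MOLM-13 and 0.23 in OCI-AML2) and 0.20 for THOC2 (0.18 in MOLM-13 and −0.07 in OCI-AML2). The fits of each line were scaled separately, so the differences are not exact subtractions. Line and dose cannot be told apart here, and groups of 3 libraries are too small for a test of single outlying libraries.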

How the results depend on the processing

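NXT1, ALYREF, DDX39A, DDX39B, THOC5 and THOC6 kept their direction and their call in all 12 alternatives of each line, and the DDX39B difference between the lines in all 18. The number of the 10 factors called higher in OCI-AML2 was 1 under library size alone, with no filter and with DESeq2, and between 1 and 2 with single libraries left out; the lower count was 7 under library size alone, 6 with no filter, and between 5 and 6 with libraries left out. The higher count in MOLM-13 ranged from 2 to 3, and the lower count was 6 under library size alone. In the difference between the lines, the higher count was 1 with no filter and between 1 and 2 with libraries left out, and the lower count between 0 and 2. Over all alternatives, called genes ranged from 6734 to 7760 in OCI-AML2, beside 7625 as reported, from 6668 to 7688 in MOLM-13, beside 7506, and from 3085 to 3810 in the difference, beside 3768, with the lowest count under DESeq2 and the highest with no filter in each. Ratio shifts ranged from 0.77 to 0.86 (NXF1 over NXT1), from −1.57 to −1.52 (DDX39A over DDX39B) and from −0.46 to −0.36 (THOC6 over THOC2). Signs turned for uncalled values only. Under upper quartile scaling SEM1 was 0.017 and ENY2 0.011 in OCI-AML2, and PCID2 0.046 and MTREX 0.015 in MOLM-13. Under library size alone TPR was −0.049 in OCI-AML2 and ZC3H3 −0.0015 in MOLM-13, and TPR was −0.0034 with no filter. The MCM3AP difference was 0.030 with DESeq2 size factors and with DESeq2, 0.053 with upper quartile scaling and 0.068 with library size alone, and that of THOC1 0.0024 and 0.018 under the last 2. With libraries left out, TPR ranged from −0.055 to 0.040 and ENY2 from −0.15 to 0.023 in OCI-AML2, PCID2 from −0.062 to 0.029 in MOLM-13, and the differences of MCM3AP from −0.053 to 0.11, NXF1 from −0.044 to 0.14 and THOC1 from −0.11 to 0.083. The median of all genes moved by less than 0.1 log2 units under every alternative. For the difference between the lines it ranged from −0.045 to 0.052 with libraries left out, beside a THOC2 difference of 0.20. The causes were not tested. No paired analysis was possible because the columns carry no replicate numbers. NXT1, at 160 to 411 counts, has the widest errors among the called factors.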
